A study of Mus musculus with 8 samples.

Results

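Open chromatin at 10 genes of the AP-1 and BATF families (Batf, Batf2, Jun, Junb, Jund, Fos, Fosb, Fosl2, Atf3 and Maff) was compared between the conventional dendritic cell subsets of mouse spleen and between Hdac1 genotypes. The genes were chosen by name, and every ATAC-seq summit within a gene's span or 50 kb on either side was taken, for 10 of the 21887 protein-coding genes annotated. Summits of different libraries that lay within 250 bp of each other were joined into sites, which gave 189 sites at the 10 genes of 112443 in the genome. The 8 libraries formed 4 groups of 2: KO cDC2 and WT cDC2 (type 2 cells, XCR1-CD11b+), and KO cDC1 and WT cDC1 (type 1 cells, XCR1+CD11b-), all sorted as lineage-negative CD11c+MHCII+CD64- spleen cells. KO mice carried floxed Hdac1 with Mx1-Cre and WT mice floxed Hdac1 without Cre. All mice, WT included, had been given poly I:C, and cells were sorted 2 weeks later. Mx1-Cre is switched on by interferon and is not limited to dendritic cells, so other cells of KO mice may also lack Hdac1. Nothing in the labels states that the libraries of a group came from separate animals, so all p-values measure the spread between libraries, which may be technical.

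AP-1 is a family of dimeric transcription factors in which a Jun protein pairs with a Fos, ATF or Maf relative through a leucine zipper and binds short DNA elements called TRE and CRE. Many of its genes are immediate-early genes, which MAP kinase signalling switches on within minutes of a stimulus. The BATF proteins have the zipper but no activation domain of their own; they pair with Jun proteins and join IRF4 or IRF8 on composite elements. In mice Batf3 is needed for cDC1 development, and Batf and Batf2 can stand in for it under some conditions.

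The deposited lists held 69025 and 78296 summits in KO cDC2, 66609 and 61737 in WT cDC2, 74963 and 96031 in KO cDC1, and 76022 and 77585 in WT cDC1. Values below come from the 61737 best-scored summits of each library, so that all lists have equal length; read depth is unknown. The windows of the 10 genes together held 126 and 122 of these summits in KO cDC2, 126 and 115 in WT cDC2, 121 and 117 in KO cDC1, and 122 and 124 in WT cDC1. The labelled subsets were checked against marker windows. The windows of 10 cDC1 markers summed to 105 to 111 summits in KO cDC2, 104 to 106 in WT cDC2, 136 to 137 in KO cDC1 and 136 to 140 in WT cDC1. The windows of 10 cDC2 markers summed to 118 to 119 in KO cDC2, 107 to 115 in WT cDC2, 87 to 104 in KO cDC1 and 89 to 91 in WT cDC1. By limma (adjusted p under 0.05), 4 of the 10 cDC1 windows passed with fewer summits in cDC2 and 1, that of Clec9a, with more. Of the 10 cDC2 windows, 3 passed with more in cDC2, where 11.3% of all genes passed in either direction. Counted by nearest gene alone, Clec9a had a mean of 0 in both subsets. At Cd8a, a surface marker of splenic cDC1, the counts were 1 and 3 in KO cDC2, 1 and 2 in WT cDC2, 8 and 10 in KO cDC1 and 11 and 8 in WT cDC1. No marker of plasmacytoid, monocyte, T, B, NK, granulocyte or erythroid cells was at 0 in all libraries. A window also takes in neighbouring genes, but the source of these summits was not tested. Counted by nearest gene alone, the means among these markers differed widely. Tcf4 kept 24.5 in cDC2 and 18.25 in cDC1, and Cd3g had 0 in both. Of these 32 markers, 5 passed by limma with fewer summits in cDC2 (Ccr9, Ly6c2, C1qa, Ms4a1 and Ly6g) and none with more. The share over all genes was the same 11.3% in either direction. The part of these markers in the results below was not tested. The Hdac1 window held 8 and 11 summits in KO cDC2, 10 and 10 in WT cDC2, 10 and 9 in KO cDC1 and 11 and 13 in WT cDC1. A peak list cannot show whether the floxed part was deleted, so the genotype labels could not be checked.

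RefSeq promoter sequences (GRCm38.p6, 250 bases before to 50 after the transcription start) were found for 9 of the 10 genes, in 11 entries; Batf2 was not matched. In 4 genes, Fos, Jun, Junb and Atf3, all 8 libraries had a summit inside the promoter. Fosb had one inside it in 5 libraries, and its promoter site was the only promoter site that passed the test between the subsets. These 5 promoters are shown 5′ to 3′ on the strand of the gene, with matches to 4 motifs searched on both strands in capitals: TRE (TGANTCA), CRE (TGACGTCA), a CRE-like octamer (TGACNTCA, which includes the CRE) and the CRE core (TGACG, which lies inside the CRE). They are at chr12:85473640-85473939 (+ strand, Fos), chr7:19309996-19310295 (- strand, Fosb), chr4:95052173-95052472 (- strand, Jun), chr8:84978699-84978998 (- strand, Junb) and chr1:191183284-191183583 (- strand, Atf3).
Fos: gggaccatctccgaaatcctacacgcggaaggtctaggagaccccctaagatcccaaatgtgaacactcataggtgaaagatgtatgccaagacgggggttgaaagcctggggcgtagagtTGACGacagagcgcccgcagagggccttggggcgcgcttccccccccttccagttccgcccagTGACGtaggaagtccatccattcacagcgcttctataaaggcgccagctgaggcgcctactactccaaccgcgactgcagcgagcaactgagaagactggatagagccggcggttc
Fosb: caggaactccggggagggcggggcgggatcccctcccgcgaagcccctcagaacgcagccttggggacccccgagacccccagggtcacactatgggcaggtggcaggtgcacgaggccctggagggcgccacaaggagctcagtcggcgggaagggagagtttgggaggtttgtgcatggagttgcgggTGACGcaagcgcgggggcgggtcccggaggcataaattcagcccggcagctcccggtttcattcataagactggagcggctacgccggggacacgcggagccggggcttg
Jun: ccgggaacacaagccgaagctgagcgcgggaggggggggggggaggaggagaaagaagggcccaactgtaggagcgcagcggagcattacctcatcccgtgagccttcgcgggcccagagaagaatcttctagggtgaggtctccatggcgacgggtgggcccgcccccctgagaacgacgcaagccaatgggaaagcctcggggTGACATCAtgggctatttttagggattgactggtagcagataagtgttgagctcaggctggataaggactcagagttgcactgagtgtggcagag
Junb: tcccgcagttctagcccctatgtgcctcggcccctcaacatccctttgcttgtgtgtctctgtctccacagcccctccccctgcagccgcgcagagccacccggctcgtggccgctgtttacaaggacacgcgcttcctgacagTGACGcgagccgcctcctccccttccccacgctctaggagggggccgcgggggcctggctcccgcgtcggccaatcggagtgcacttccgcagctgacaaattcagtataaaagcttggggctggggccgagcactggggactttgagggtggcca
Atf3: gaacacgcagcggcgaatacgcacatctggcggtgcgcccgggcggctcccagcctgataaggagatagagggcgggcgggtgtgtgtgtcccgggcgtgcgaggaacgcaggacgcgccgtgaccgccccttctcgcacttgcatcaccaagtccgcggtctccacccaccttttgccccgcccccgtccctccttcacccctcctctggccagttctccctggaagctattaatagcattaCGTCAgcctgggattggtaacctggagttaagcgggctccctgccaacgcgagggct
Positions of matches are those of the first base, counted from the transcription start, with the base before it as -1. The core was found in Fos at -129 and -66, in Fosb at -60, in Junb at -106 and in Atf3 at -7. Jun held the CRE-like octamer TGACATCA at -45. Outside the promoters printed, Batf held a core at -98, and Maff, a small Maf protein without an activation domain, held a full CRE at -29 of the second of its 3 promoter entries, chr15:79347270-79347569 (+ strand). The core occurred in 7 of the 11 entries (63.6%), against 23.6% of 21263 promoters of the genome. Entries of 1 gene are not independent, and counted by gene the core was found in 6 of 9. The CRE-like octamer occurred in 3 of 11, against 8.75%, the CRE in 1, against 2.23%, and the TRE in 0, against 6.99%. A match is a description of the letters and not of binding.

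The Fos promoter, which drives one of the classical immediate-early genes, was open at a similar rank in both subsets. Its rank is given as the percentile of the peak score within the library, where 100 is the highest score. The site at chr12:85473762-85473886 stood at 86.4 and 85.3 in KO cDC2, 80.2 and 80.4 in WT cDC2, 82.5 and 85.5 in KO cDC1 and 77.6 and 83.2 in WT cDC1. The groups overlapped and cDC2 minus cDC1 was 0.91 ± 1.98 percentile points (SE; 95% interval -4.07 to 5.89; limma adjusted p = 0.792). The Jun promoter, whose product is the Fos partner, reached 85.8 to 94.4 over the 8 libraries, with a difference of -2.87 ± 1.71 (SE; adjusted p = 0.298). Junb, a Jun relative that also pairs with BATF, had a promoter site at 51.5 to 70.6 and a difference of -6.53 ± 4.67 (SE; adjusted p = 0.377). At Atf3, a stress-induced factor that restrains inflammatory genes in mouse macrophages, the promoter site at chr1:191183501-191183561 had ranks of 86.9 and 89.7 in KO cDC2, 91.0 and 84.9 in WT cDC2, 96.6 and 93.8 in KO cDC1 and 96.6 and 93.8 in WT cDC1. The subsets did not overlap there, but the difference of -7.07 ± 2.20 points missed the threshold (SE; limma adjusted p = 0.0906).

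The Fosb promoter ranked lower in cDC2. The site at chr7:19310119-19310409, 0.2 kb upstream of the start, ranked 70.0 and 60.8 in KO cDC2, 59.4 and 55.2 in WT cDC2, 81.9 and 77.4 in KO cDC1 and 79.2 and 77.9 in WT cDC1. Every cDC2 library lay below every cDC1 library, and the difference was -17.8 ± 2.80 points (SE; 95% interval -24.8 to -10.7; limma adjusted p = 0.0201). Among the fits that left out a library, the call was lost without WT cDC2 replicate 2 (adjusted p = 0.0606), KO cDC1 replicate 1 (0.0544), WT cDC1 replicate 1 (0.0647) or WT cDC1 replicate 2 (0.0582). Within the site the summit lay between 19310119 and 19310207 or between 19310404 and 19310409, in libraries of either subset. In sorted bulk cells, fewer cells with the site open and less open chromatin per cell cannot be told apart, here or below.

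The other starts had less uniform peaks. Batf had a site across its start at 48.9 to 66.5 over the 8 libraries, with a difference of 2.19 ± 3.92 points (SE; limma adjusted p = 0.743). Fosl2, which encodes the Fos relative Fra-2, had its main peak 0.8 kb upstream at 77.3 to 87.7 and a difference of -3.99 ± 2.10 (SE; adjusted p = 0.247). Jund had no summit in the promoter entry used here in any library. Its peak lay 1.1 kb downstream of the start of that entry, inside the gene, at 78.6 to 92.8. Whether another transcript starts there was not examined. At Maff, summits fell on neighbouring positions. A site 0.8 kb downstream of the first start lay inside the second promoter entry. It was listed in WT cDC2 replicate 2, KO cDC1 replicates 1 and 2 and WT cDC1 replicate 2. A site 1.4 kb downstream of the first start was listed in the other 4 libraries, so either alone looks absent where the other was called. For Batf2, whose strand was not taken from a source used here, a site across the lower-coordinate end of the gene span (chr19:6164309-6164526) was listed at 11.4 in KO cDC2 replicate 2, in no other cDC2 library, and at 39.7 and 51.0 in KO cDC1 and 56.9 and 34.0 in WT cDC1.

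Over the full lists of equal length, the number of summits per gene window passed the test between subsets at none of the 10 genes. For cDC2 minus cDC1, 0 of 10 passed by limma (adjusted p under 0.05). At an unadjusted p under 0.05 was 1, Batf2, against 4932 of 17728 genes. Of all 17728 genes tested, 2009 passed (11.3%), 995 with more summits in cDC2 and 1014 with fewer. Within a genotype 0 of 10 passed in KO (1.39% of all genes) and 0 in WT (2.97% of all genes). At an unadjusted p under 0.05 were 0 in KO and 1 in WT, against 2918 and 3474 of all 17728 genes. With the lists at their deposited length the split over all genes was 231 to 1970, the median over all genes was -0.16 on the log2 scale, and again none of the 10 passed. The 10 windows were well populated: their mean counts ran from 5.25 to 23.1 with a median of 11.75, against a median of 7.125 over all genes tested. The counts stand in the upper part of the plot of summits per window.

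**Figure D1:**
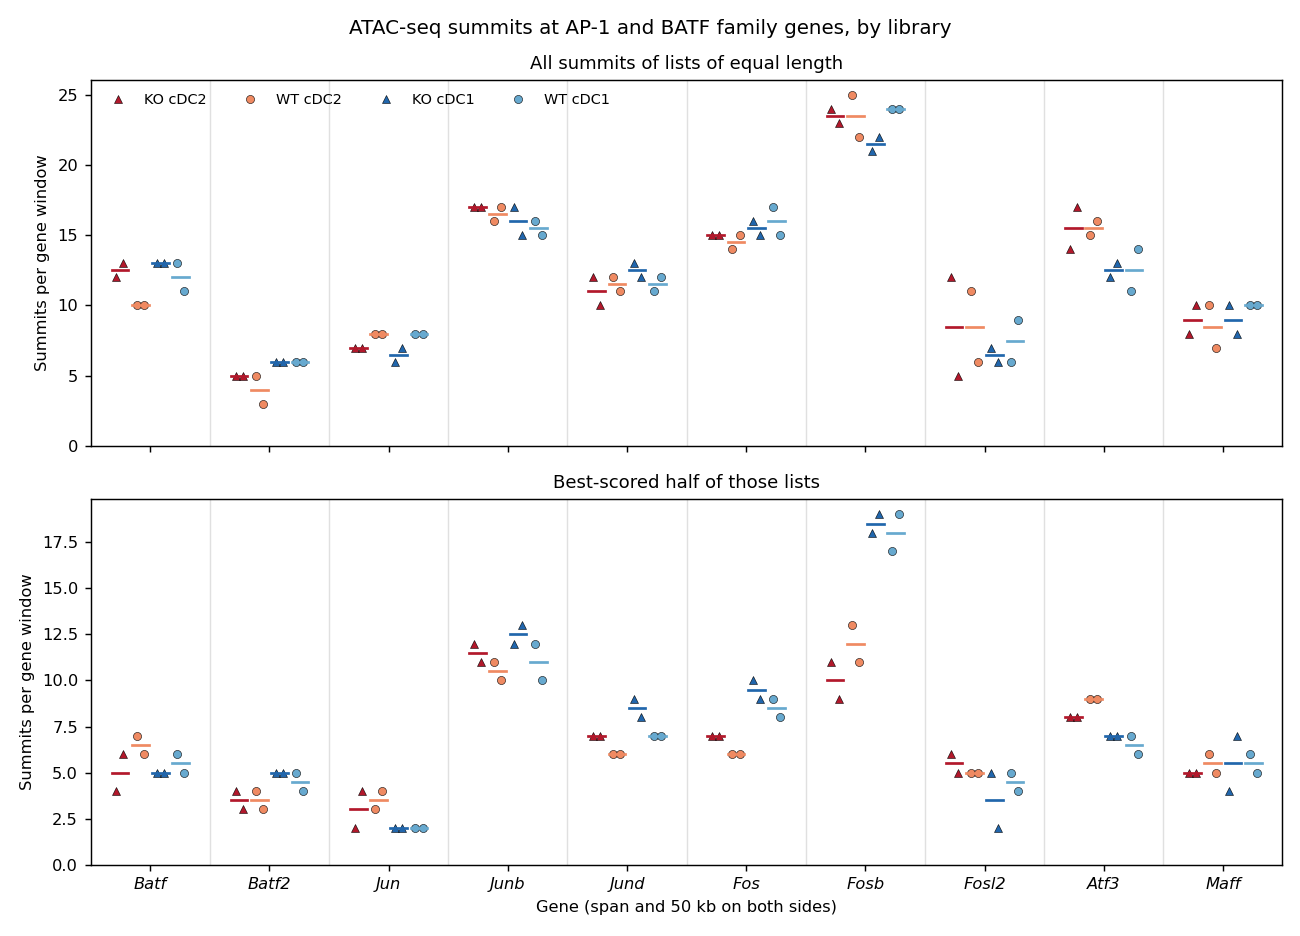
Number of summits in each gene window (y axis) for the 10 genes (x axis); triangles are KO and circles WT libraries, cDC2 in red and cDC1 in blue, and bars are means of 2 libraries. In the upper panel no gene passed the test between subsets; in the lower panel, the best-scored 30868 summits of each library, the 4 cDC2 libraries at Fosb (9 to 13) lie below the 4 cDC1 libraries (17 to 19).

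Batf2, the BATF protein known in mouse for standing in for Batf3 in infected animals, held 5 and 5 summits in KO cDC2, 5 and 3 in WT cDC2, 6 and 6 in KO cDC1 and 6 and 6 in WT cDC1. Every cDC2 library had fewer than every cDC1 library, but the log2 difference of -0.37 ± 0.15 did not pass (SE; 95% interval -0.70 to -0.04; limma adjusted p = 0.136). Atf3 held 14 and 17 in KO cDC2, 15 and 16 in WT cDC2, 12 and 13 in KO cDC1 and 11 and 14 in WT cDC1. These groups overlapped, and the log2 difference was 0.29 ± 0.13 (SE; 95% interval -0.0025 to 0.58; limma adjusted p = 0.182). Fosl2 varied most between libraries of a group, with 12 and 5 in KO cDC2, 11 and 6 in WT cDC2, 7 and 6 in KO cDC1 and 6 and 9 in WT cDC1, and its log2 difference was 0.19 ± 0.26 (SE; limma adjusted p = 0.688). The other 7 genes had log2 differences between -0.15 and 0.08. Over the 10 genes the 95% intervals reached from -0.70 to 0.75.

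Among the best-scored summits 1 gene, Fosb, passed. Its window held 11 and 9 of the best-scored 30868 summits in KO cDC2, 13 and 11 in WT cDC2, 18 and 19 in KO cDC1 and 17 and 19 in WT cDC1. The groups did not overlap, and the log2 difference was -0.69 ± 0.14 (SE; limma adjusted p = 0.00991). Over the full lists of equal length the same window held 24 and 23 in KO cDC2, 25 and 22 in WT cDC2, 21 and 22 in KO cDC1 and 24 and 24 in WT cDC1, a log2 difference of 0.05 ± 0.12 (SE; 95% interval -0.21 to 0.31; limma adjusted p = 0.842). Fos had 7 and 7 in KO cDC2, 6 and 6 in WT cDC2, 10 and 9 in KO cDC1 and 9 and 8 in WT cDC1 among them, a difference of -0.41 ± 0.13 that missed the threshold (SE; limma adjusted p = 0.0667). In these shorter lists 1 of the 10 genes passed, against 11.7% of 16494 genes, a share that says nothing particular about the 10. Fosb passed in 1 of its 18 alternatives, this one. The Fosb window also covers Ercc1, Vasp, Rtn2 and other genes, and Fosb was the nearest gene of 10 of its 32 sites.

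Single sites were compared next. Of the 189 sites, 66 had a summit in all 8 libraries (34.9%, against 26.4% of all sites), 35 in 1 library (18.5%, against 24.3%), and 18 stood above percentile 75 in all 8 (all sites 7.50%). The member was the nearest gene for 92 sites, and 55 lay inside another gene. The share in all 8 libraries was 14 of 23 sites at Junb and 2 of 15 at Maff. The rank of the 66 sites was tested within a fit over the 29645 sites of the genome found in all 8 libraries: 11 of 66 differed between the subsets (16.7%, against 14.6% of all), 4 higher (8.29% of all) and 7 lower in cDC2 (6.28% of all). A share that close to the background says nothing particular about these genes. Of the 66, 45 had a lower mean rank in cDC2 and 21 a higher one, with a median difference of -3.44 points, against 0.41 over all sites tested. The cDC2 and cDC1 ranks did not overlap at 19 of the 66 (25.1% of all sites tested). Which sites passed is shown by gene and distance in the map.

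**Figure D2:**
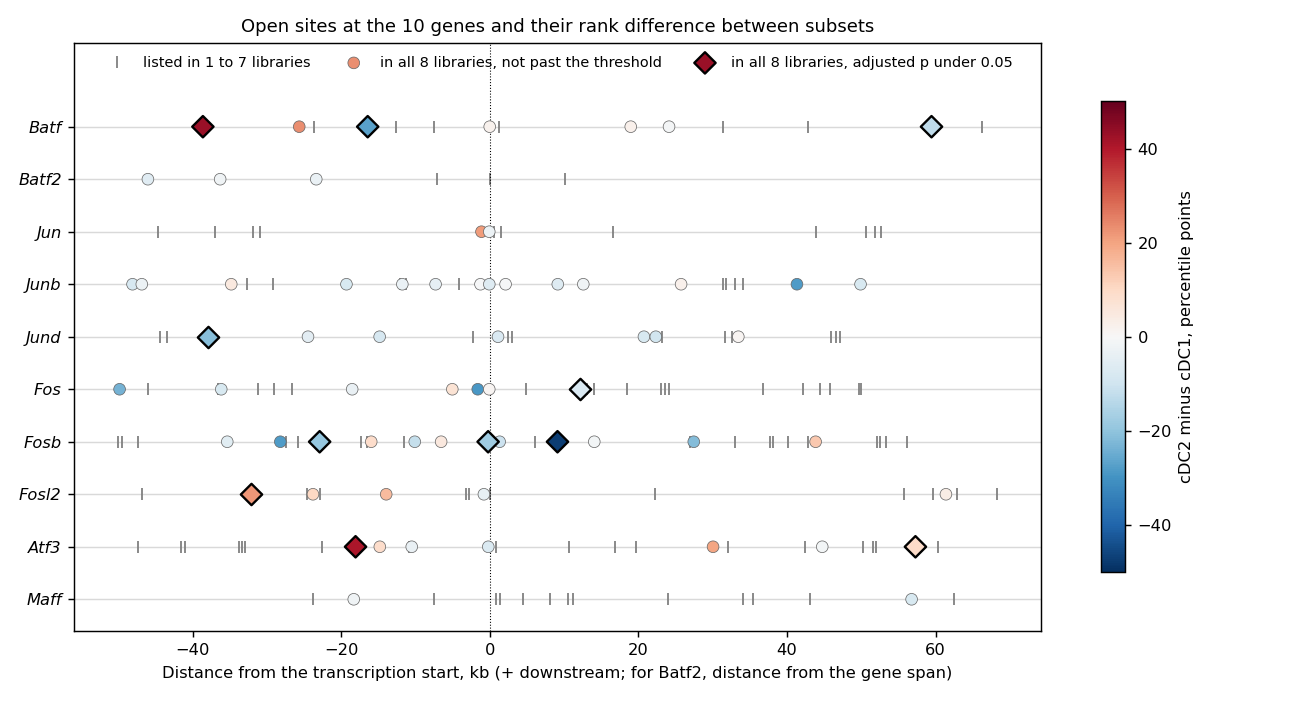
Position of the 189 sites along the 10 genes, in kb from the transcription start (x axis, positive downstream; for Batf2, from the gene span). Circles and diamonds are the 66 sites found in all 8 libraries, coloured by cDC2 minus cDC1 in percentile points, and diamonds mark the 11 that passed the test; grey ticks are sites listed in 1 to 7 libraries.

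Fosb held 3 of the 11, all lower in cDC2. The site at chr7:19300570-19301285, 9.1 kb downstream of the start and just past the end of the gene, ranked 23.7 and 31.3 in KO cDC2, 35.1 and 18.2 in WT cDC2, 77.8 and 69.3 in KO cDC1 and 74.8 and 75.6 in WT cDC1. No cDC2 library came near any cDC1 library, and the difference was -47.3 ± 4.62 points (SE; 95% interval -59.0 to -35.7; limma adjusted p = 0.00905). It passed in each genotype alone, at -46.1 in KO (adjusted p = 0.0448) and -48.5 in WT (adjusted p = 0.0321); 2 of 66 sites passed in KO (2.05% of all) and 1 in WT (4.12% of all). The best-ranked summit of KO cDC2 replicate 2 was at 19300907, and those of the other 7 libraries lay between 19300570 and 19300667. This was the only one of the 11 to pass in each of its 14 alternatives, with adjusted p between 0.0167 and 0.0325 when 1 library was left out; with sites joined only within 100 bp it was not found in all 8 libraries. Farther upstream, at chr7:19332880-19332994 and 22.9 kb from the start, where Ercc1 is the nearest gene, the ranks were 53.3 and 44.3 in KO cDC2, 53.1 and 59.8 in WT cDC2, 69.5 and 68.2 in KO cDC1 and 74.0 and 76.1 in WT cDC1. The subsets were again apart, by -19.3 ± 2.86 points (SE; limma adjusted p = 0.0179), and among the fits that left out a library the call was lost without WT cDC1 replicate 1 (0.0535) or 2 (0.0565). The remaining site is the promoter described above.

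The Fos window had 1 site that passed. At chr12:85486090-85486117, 12.2 kb downstream, the ranks were 92.3 and 89.7 in KO cDC2, 88.8 and 87.5 in WT cDC2, 96.6 and 97.3 in KO cDC1 and 97.8 and 97.0 in WT cDC1. The site was among the best-scored in every library, and higher still in cDC1. The difference of -7.61 ± 1.56 points (SE; limma adjusted p = 0.0359) lost its call whichever library was left out, at adjusted p from 0.0659 to 0.103. At Jund, a Jun protein present in many resting cells, a site at chr8:70659718-70659817, 38.0 kb upstream and inside Pgpep1, stood at 72.8 and 62.8 in KO cDC2, 67.1 and 54.0 in WT cDC2, 87.4 and 78.4 in KO cDC1 and 87.2 and 88.5 in WT cDC1. It was lower in all 4 cDC2 libraries, by -21.2 ± 4.31 points (SE; limma adjusted p = 0.0349). The call held only without WT cDC2 replicate 1 (0.0425) among the 8 fits that left out a library, and adjusted p reached 0.0947 without WT cDC1 replicate 1.

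Batf, the founding BATF protein, had 3 such sites and they pointed different ways. At chr12:85648051-85648179, 38.6 kb upstream, where Jdp2 is the nearest gene, the ranks were 77.1 and 57.3 in KO cDC2, 77.8 and 70.0 in WT cDC2, 30.0 and 13.7 in KO cDC1 and 36.2 and 29.4 in WT cDC1. All cDC2 libraries were higher, by 43.2 ± 6.14 points (SE; 95% interval 27.7 to 58.7; limma adjusted p = 0.0164), and only leaving out WT cDC1 replicate 2 moved it past the threshold (0.0521). Nearer the gene, at chr12:85670268-85670322 and 16.4 kb upstream, the order was turned round, with 28.7 and 47.5 in KO cDC2, 35.0 and 42.1 in WT cDC2, 54.1 and 57.9 in KO cDC1 and 76.5 and 72.8 in WT cDC1. That difference was -27.0 ± 4.71 points (SE; limma adjusted p = 0.0249), and it kept its call only without KO cDC2 replicate 1 or 2 among the fits that left out a library (adjusted p up to 0.0777 otherwise). At 59.5 kb downstream, beside the start of Flvcr2, the ranks at chr12:85745893-85746452 were 43.2 and 51.9 in KO cDC2, 65.4 and 67.5 in WT cDC2, 71.1 and 79.1 in KO cDC1 and 64.0 and 65.2 in WT cDC1. The mean difference of -12.9 ± 2.96 points (SE; limma adjusted p = 0.0463) was the average of -27.6 in KO (adjusted p = 0.0491) and 1.85 in WT (adjusted p = 0.833). The difference between these genotype-specific effects, -29.4 points, did not pass over all sites (limma adjusted p = 0.638), and the mean difference lost its call whichever library was left out (adjusted p from 0.0542 to 0.118). The best-ranked summit of KO cDC2 replicate 1 was at 85746451, and its summit at 85745944 ranked 29.7. In all other libraries the best-ranked summit lay between 85745893 and 85746011. With sites joined only within 100 bp the mean difference was -16.2 points and did not pass (limma adjusted p = 0.101).

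The remaining 3 sites were higher in cDC2. Atf3 had the larger one at chr1:191201328-191201459, 18.1 kb upstream, with 88.6 and 84.4 in KO cDC2, 92.8 and 87.5 in WT cDC2, 58.6 and 31.5 in KO cDC1 and 55.1 and 44.7 in WT cDC1. The cDC2 libraries were close together and the cDC1 libraries more spread, and the difference was 40.8 ± 6.58 (SE; limma adjusted p = 0.0211). It passed only without KO cDC1 replicate 1 or 2 among the fits that left out a library, and adjusted p was at most 0.0629 in the others. A second Atf3 site at chr1:191125978-191126110, 57.3 kb downstream and nearer to Batf3, the cDC1 factor, ranked 92.3 and 91.8 in KO cDC2, 84.5 and 91.5 in WT cDC2, 81.2 and 81.0 in KO cDC1 and 79.5 and 80.4 in WT cDC1. Its 9.49 ± 2.07 points (SE; limma adjusted p = 0.0408) passed without WT cDC2 replicate 1 and in no other fit that left out a library (adjusted p up to 0.113). Fosl2 had a site at chr5:32104290-32104371, 32.1 kb upstream and nearest to Babam2, at 71.0 and 73.6 in KO cDC2, 75.2 and 81.6 in WT cDC2, 50.7 and 40.6 in KO cDC1 and 57.7 and 64.8 in WT cDC1. The subsets did not overlap, by 21.9 ± 3.35 points (SE; limma adjusted p = 0.0189), and among the fits that left out a library the call was lost without KO cDC2 replicate 1 (0.0502) or 2 (0.0563), WT cDC2 replicate 2 (0.0565) or WT cDC1 replicate 1 (0.0570). Over Jun, Junb, Batf2 and Maff no site passed, but few could be tested outside Junb. Sites in all 8 libraries numbered 2 of 13 at Jun, 14 of 23 at Junb, 3 of 6 at Batf2 and 2 of 15 at Maff. At the Jun site 1.1 kb upstream the cDC2 ranks (74.7 to 85.4) lay above the cDC1 ranks (37.5 to 71.9). That difference of 21.5 ± 7.92 points missed the threshold (SE; limma adjusted p = 0.129).

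**Figure D3:**
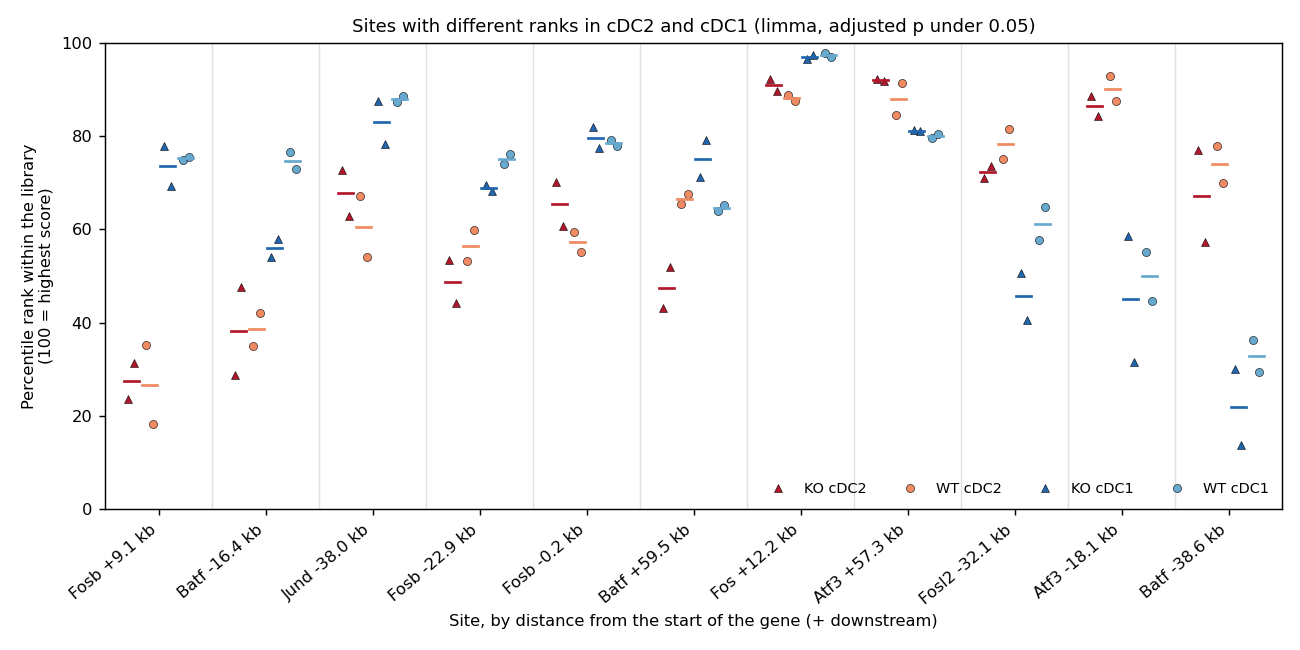
Percentile rank within the library (y axis, 100 is the highest score) of the 11 sites that differed between subsets, ordered by difference and named by gene and distance from its start (x axis). Points are libraries, bars the means of 2; the Fosb site at 9.1 kb has cDC2 libraries at 18.2 to 35.1 and cDC1 libraries at 69.3 to 77.8.

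Presence in only 1 subset was rare. A summit in all 4 libraries of one subset and none of the other was found at 2 sites for cDC2 (2.42% of all sites) and 5 for cDC1 (4.33% of all sites). The cDC2 sites were at Batf, chr12:85674036-85674137, 12.6 kb upstream, with ranks of 27.9 and 33.5 in KO and 44.5 and 32.8 in WT, and at Fosb, 26.9 kb downstream inside Rtn2, with ranks of 15.8 and 6.06 in KO and 14.5 and 16.3 in WT. The full deposited lists held no cDC1 summit at the Batf site, but 3 of the 4 cDC1 lists held one at the Fosb site below the length limit. The cDC1 sites lay at Fos (42.2 kb downstream, ranks 38.7 and 19.7 in KO and 44.7 and 43.6 in WT), Jun (37.0 kb upstream), Fosl2 (46.8 kb upstream), Batf (66.3 kb downstream, inside Flvcr2) and Maff (23.7 kb upstream, inside Pla2g6). The full deposited lists held a cDC2 summit at the Maff site in 1 library and at none of the other 4.

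Other sites were near this pattern without meeting it, and are described without a test because a library without a summit has no rank there. With such libraries given rank 0, 30 of 124 sites listed in at least 4 libraries passed (30.8% of all); sites kept only through 1 subset had to differ, so nothing is read from that count. At Fos, chr12:85510657-85510763, 36.8 kb downstream, only WT cDC2 replicate 2 was listed among cDC2 libraries, at 47.4, against 80.7 and 76.2 in KO cDC1 and 74.9 and 73.2 in WT cDC1. At Fosb, a site 16.5 kb upstream stood at 7.67 in KO cDC2 replicate 1 and was unlisted in replicate 2, and at 20.5 and 2.39 in WT cDC2, against 74.5 and 61.4 in KO cDC1 and 73.0 and 73.5 in WT cDC1. The next Fosb site, 17.3 kb upstream, was listed in WT cDC2 replicate 2 alone among cDC2 libraries, at 39.9, and at 64.6 to 78.6 in all 4 cDC1 libraries. In the full deposited lists all 4 cDC2 libraries had a summit at the first of these Fosb sites, and 2 of 4 at the second and at the Fos site. At Batf2, a site outside the gene at chr19:6157277-6157386 ranked 69.4 and 16.1 in KO cDC2, 55.6 in WT cDC2 replicate 1 and was unlisted in WT cDC2 replicate 2, against 93.0 and 91.5 in KO cDC1 and 97.5 and 93.0 in WT cDC1. In the other direction, a site 51.8 kb downstream of Jun, nearest to Mysm1, ranked 49.9 and 60.7 in KO cDC2 and 61.6 and 66.0 in WT cDC2, and in cDC1 was listed in KO replicate 1 at 0.955 and WT replicate 2 at 32.1; the full deposited lists held a summit there in all 4 cDC1 libraries. The Fosb, Fos and Atf3 windows are drawn in full in the heat map.

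**Figure D4:**
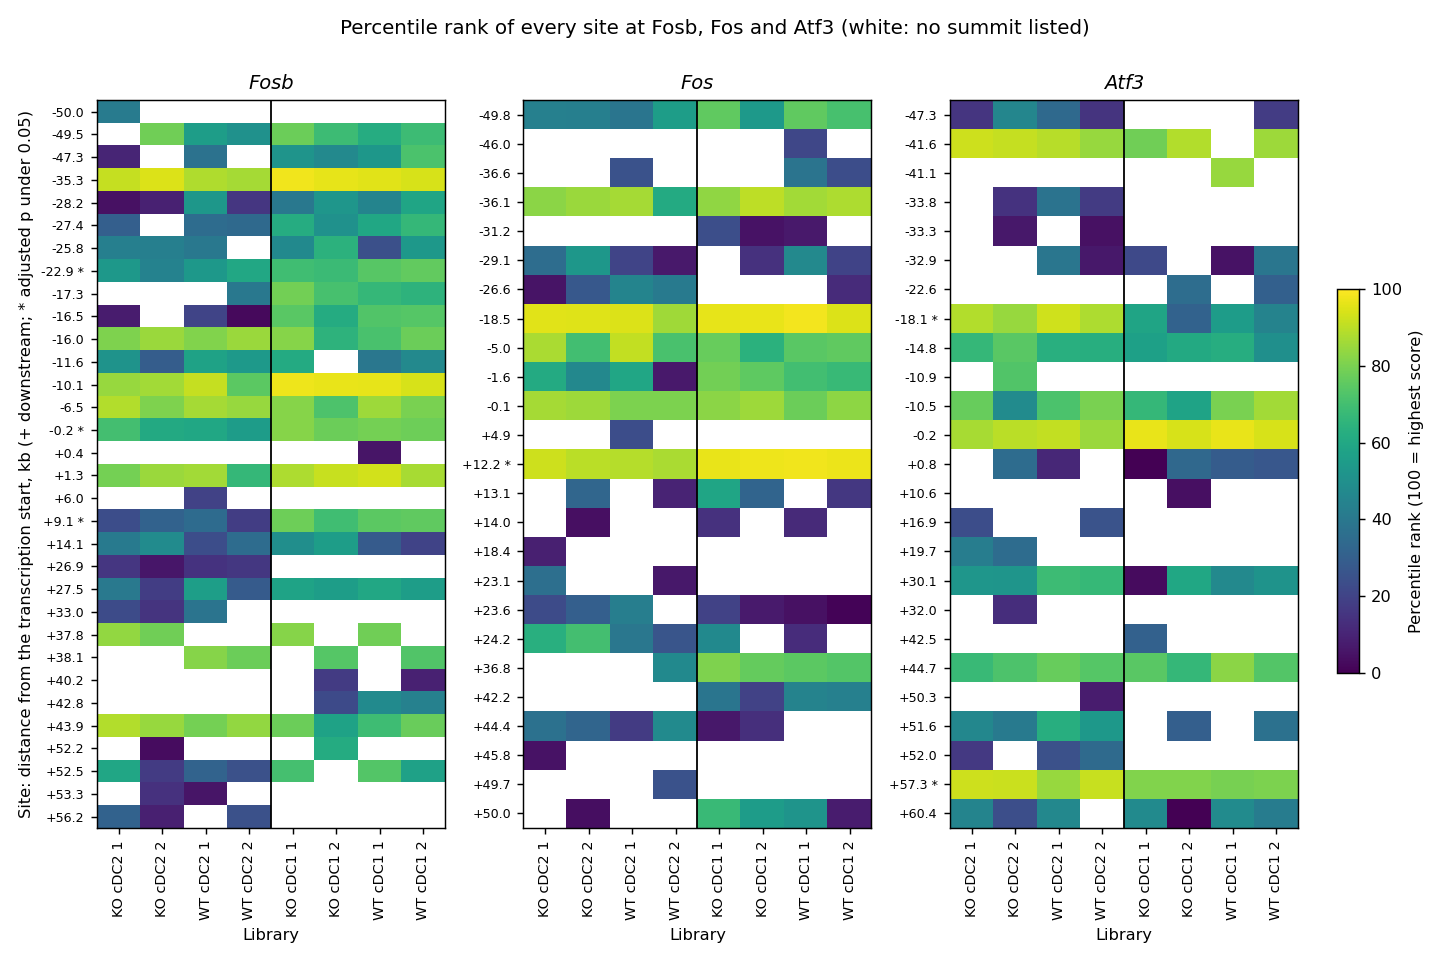
Percentile rank (colour, 100 is the highest score) of every site at Fosb (32 sites), Fos (25) and Atf3 (25), in rows by distance from the start in kb and in columns by library, with cDC2 left of the black line; white means no summit listed. At Fosb the sites near -17, -16.5 and +9.1 kb are bright in the 4 cDC1 libraries and dark or white in cDC2, and at Atf3 the site at -18.1 kb is brightest in cDC2.

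Sites of high rank in all 8 libraries were found beside these. A site 18.5 kb upstream of Fos ranked 85.8 to 98.3 over the 8 libraries, one inside Batf, 19.0 kb downstream of its start, 87.1 to 94.2, and one in the Maff window inside Pla2g6, 18.3 kb upstream, 92.6 to 99.6. None of these 3 passed the test between subsets (limma adjusted p of 0.374, 0.352 and 0.412).

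The deletion of Hdac1, a histone deacetylase, was the other comparison. For KO minus WT, 0 of the 10 gene windows passed in cDC2, in cDC1 or over both subsets by limma, and 0 had an unadjusted p under 0.05. Over all 17728 genes 0 passed in cDC2 and over both subsets (1198 with unadjusted p under 0.05 over both) and 1 in cDC1 (0.00564%). The largest difference over both subsets was at Jun, with 7 and 7 summits in KO cDC2, 8 and 8 in WT cDC2, 6 and 7 in KO cDC1 and 8 and 8 in WT cDC1. All KO libraries had fewer summits there, by 0.22 ± 0.12 on the log2 scale (SE; 95% interval -0.48 to 0.05; limma adjusted p = 0.808). Batf, with 12 and 13 in KO cDC2, 10 and 10 in WT cDC2, 13 and 13 in KO cDC1 and 13 and 11 in WT cDC1, had 0.20 ± 0.12 (SE; limma adjusted p = 0.834), and in the best-scored 30868 summits this difference turned to -0.23 (adjusted p = 0.960). Over the 10 genes the 95% intervals ran from -0.67 to 0.47.

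At the level of sites, no site at the 10 genes was listed in all KO and no WT libraries, or the reverse (0.0836% and 0.0694% of all sites). Of the 66 sites ranked in all libraries, 0 passed for KO minus WT by limma, as did 0 of 29645 in the genome. At an unadjusted p under 0.05 were 5 of the 66, against 3340 of the 29645. KO and WT ranks did not overlap at 2 of the 66 (all sites 3.27%). The Fosb site 9.1 kb downstream differed by -0.43 ± 4.62 points between KO and WT (SE; limma adjusted p = 0.994), and the Fos promoter by 4.59 ± 1.98 (SE; adjusted p = 0.472). The difference of the genotype effects between subsets passed by limma at 0 of 10 gene windows and 0 of 66 sites, and at 0 over all genes and sites. At an unadjusted p under 0.05 were 0 windows and 2 sites, against 690 of 17728 genes and 1750 of 29645 sites. A missed threshold with 2 libraries per group does not show that the genotypes are alike.

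Related genes were read from lists chosen with earlier results of these data known. Of 30 other AP-1 and bZIP genes, 2 passed by limma with more summits in cDC2 and 1 with fewer. Of all genes tested, 11.3% passed in either direction. The median log2 difference of the list was -0.02, against 0.00 over all genes. Crem, a cyclic AMP-responsive factor that can repress through CRE elements, held 7 and 7 in KO cDC2, 9 and 12 in WT cDC2, 6 and 5 in KO cDC1 and 4 and 5 in WT cDC1, a log2 difference of 0.68 ± 0.14 (SE; limma adjusted p = 0.0149) that was not called in the best-scored 30868 summits (adjusted p = 0.659) or with all deposited summits (0.101). Creb1, the founding CRE-binding protein, had a log2 difference of -0.51 (limma adjusted p = 0.0406) and lost the call in 6 of the 8 fits that left out a library. Batf3 held 17 to 19 summits in all libraries, with a log2 difference of 0.02 (adjusted p = 0.946). Of 28 MAP kinase pathway genes tested, 0 passed by limma, and the counts that passed in this and the next lists are to be read against the same 11.3% of all genes. Of 19 other immediate-early genes 1 passed, Hspa1a, a heat shock gene, at 0.42 (adjusted p = 0.0483), with adjusted p between 0.0785 and 0.141 whichever library was left out. Of 5 IRF genes, among them the BATF partners Irf4 and Irf8, 1 passed. It was Irf8, with 12 and 11 in KO cDC2, 9 and 8 in WT cDC2, 16 and 16 in KO cDC1 and 17 and 15 in WT cDC1. Its log2 difference was -0.64 ± 0.12 (SE, limma adjusted p = 0.0104, and 0.0699 in the best-scored 30868 summits). Irf4 did not pass (0.18; adjusted p = 0.369). No gene of these lists passed for KO minus WT.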

How the data were processed

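ATAC-seq was done on sorted spleen cells, with tagmentation for 30 min at 37 C per the labels' protocols. The submitters' processing notes name Bowtie2, MACS2, SAMtools and MultiQC and the build GRCm38 (mm10); versions and settings are not given in the sources used here. For each library the authors deposited 1 list of peak summits with a score, a -log10 value read here as the q-value written by MACS2, since each list began at 1.30 to 1.36. Such scores rise with depth, which is unknown, so no counting interval could be given, and only ranks within each library were used. A gene without a summit had no called peak, which does not show closed chromatin.

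Lists were shortened to the 61737 best-scored summits. Summits per window were analysed as log2(summits + 1) for genes with a mean of at least 1, and percentile ranks for sites found in all 8 libraries, where a site with several summits in a library took the best. Both used limma 3.58.1 in R 4.3.3 with 4 group means, 7 contrasts and Benjamini-Hochberg adjustment over all genes or sites, at 0.05. For counts, 0.0833 squared summits, the variance that rounding to whole numbers gives, was added to each gene's variance. A fold in summits counts called peaks, not reads. The annotation gave gene spans without exons, so exon and intron were not told apart.

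The 10 genes and all lists were chosen with earlier results of these data known. All 10 are named; from each other list, the genes that passed for cDC2 minus cDC1 or KO minus WT, up to 4 per direction, with Batf3, Irf4, Irf8 and Hdac1 always named. One gene that met this rule is not reported here. Sites are named where they passed, lay at a promoter or were listed in 1 subset only. Those of high rank in all libraries or nearly restricted to 1 subset were chosen after their values were seen. Alternatives changed list length, window, nearest-gene counting, pseudocount, filter, variance treatment, joining distance, rank scale, replicate block and single libraries. Differences smaller than their own SE were given no direction when alternatives were compared.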

Additional observations from a re-analysis of the deposited data

Results flagged for a closer look

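In groups of 4 libraries (both genotypes of a subset), 7 of 42 groups screened had a library set apart from the other 3 by more than Dixon's 95% limit, where chance gives about 2.1. For whole numbers this is reached by a step of 1 summit when the other 3 are equal. WT cDC1 replicate 2 had 11 summits at Batf, against 13 in each other cDC1 library. WT cDC2 replicate 2 had 3 at Batf2, against 5 in each other cDC2 library. WT cDC2 replicate 1 had 16 at Junb, against 17, and 14 at Fos, against 15. KO cDC1 replicate 2 had 8 at Maff, against 10. At the site 38.0 kb upstream of Jund, KO cDC1 replicate 2 ranked 78.4 among cDC1 libraries otherwise at 87.2 to 88.5. At the site 57.3 kb downstream of Atf3, WT cDC2 replicate 1 ranked 84.5 among cDC2 libraries otherwise at 91.5 to 92.3.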

How the results depend on the processing

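All counts for KO minus WT and for the difference of its effects between subsets at the 10 genes stayed at 0 gene windows and 0 sites in every alternative run. For cDC2 minus cDC1, the count of gene windows that passed was 0, and became 1 in the best-scored 30868 summits (Fosb), 1 with trend and robust variance (Atf3, adjusted p = 0.0371), and 0 to 1 when 1 library was left out (Batf2, adjusted p = 0.0429 without WT cDC2 replicate 1). The count of sites that passed was 11 of 66 (14.6% of all sites tested), and it was 4 with the replicate block. Lost there, at limma adjusted p from 0.0504 to 0.0956, were 2 Batf sites, 16.4 kb upstream and 59.5 kb downstream, and those of Jund, Fos, Fosl2, Fosb at 22.9 kb and Atf3 at 57.3 kb. The count was 24 with trend and robust variance, and 2 to 12 when 1 library was left out. With unlisted libraries given rank 0 it was 30 of 124, against 30.8% of all sites so tested. For the other alternatives no share over all sites is given, so nothing about the 10 genes is read from their counts. Trend and robust variance for ranks and rank 0 were chosen after seeing the data. Replicate numbers were not treated as pairs. In the window counts, same-numbered libraries deviated together by correlations of 0.0039 to 0.0644 over 17728 genes, and the replicate block gave 0 gene windows in each contrast. Such correlations were not computed for site ranks. They cannot show whether pairing matters there, where the block left 4 of the 11 sites. Of the 11 sites, 10 lost the call in at least 1 alternative. Sites listed in all cDC2 and no cDC1 libraries numbered 2, and 1 with all deposited summits, 1 in the best-scored 30868 and 1 with joining within 500 bp; sites in all 8 libraries numbered 66, and 40 in the best-scored 30868. Batf for KO minus WT was 0.20, and -0.23 in the best-scored 30868. The causes were not tested. With all deposited summits the median over all genes moved by 0.14 for KO minus WT. With 2 libraries per group and unknown depth, weak peaks limit what presence can show.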
